A study of Mus musculus with 4 samples.

Results

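The genes described here are 10 factors that act in the elongation of the body axis and in the timing of its posterior parts: *Cdx1*, *Cdx2*, *Cdx4*, *T*, *Tbx6*, *Nkx1-2*, *Sp5*, *Gdf11*, *Lin28a* and *Lin28b*. They were chosen by name, for their known place upstream of *Hox* genes, and are 10 of the 23420 gene symbols that were counted. The libraries are RNA-seq of total RNA, depleted of ribosomal RNA, from cervical motor neurons (MNs) that were made from E14 cells, a mouse embryonic stem cell (ESC) line. The WT group is unedited E14 and the *Patz1* KO group is E14 with the genotype *Patz1* -/-, with 2 libraries in each. Both were grown as embryoid bodies and patterned from day 2 with 1 µM retinoic acid and 0.5 µM of the smoothened agonist SAG. Per the study's methods, replicates are independent differentiations, and the labels do not say which *Patz1* KO clone was used or whether both libraries came from 1 clone. All 4 sample titles name ESCs, but source and cell type name MNs, which is how they were read here. PATZ1 is a zinc finger protein that binds DNA, and the comparison asks how its loss changes transcripts in MNs.

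In the embryo, the trunk grows from progenitors at its tail end that can give spinal cord or mesoderm. Wnt and fibroblast growth factor signals keep them growing and act through *T*, *Sp5* and the *Cdx* genes, which activate central *Hox* genes, and retinoic acid, which was added to these cultures, opposes them. Later the ligand GDF11 starts the change from trunk to tail, while the RNA-binding proteins LIN28A and LIN28B, which block the making of let-7 microRNAs, are high early and fall with age. In turn, let-7 represses both *Lin28* mRNAs.

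*Patz1* itself had 1363 and 1499 WT counts against 1154 and 714 in *Patz1* KO, and its log2 fold change was -1.04 (SE 0.095, adjusted p = 1.1e-07 in edgeR's quasi-likelihood, or QL, test, Benjamini-Hochberg adjusted), and gene counts do not show the edited allele. Exons of *Patz1* overlap *Gm11944* on the same strand and *Gm12592* on the other. Total counts ran from 14769104 to 23881522 per library, and 14269 genes passed the filter on low counts. Of these, 24.1% were called higher and 23.8% lower with loss of *Patz1* (adjusted p below 0.05), and in 74.2% the groups did not overlap. All 10 MN markers looked at passed the filter, among them *Mnx1*, *Isl1*, *Lhx3* and *Chat*. Their summed level was 721 to 779 CPM (counts scaled to a common library size with TMM) in WT and 1130 to 1240 CPM in *Patz1* KO, and 9 of the 10 were called higher. The exact permutation p of 1 gene cannot reach 0.05 with 2 libraries per group, so each p comes from the fit over all genes.

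The sequences that bear on the largest counts among the members are those of the Lin28 and let-7 loop. RefSeq (GRCm38.p6) gave a mature 5′ strand for 11 of the 12 let-7 family hairpins looked up, and all 11 share the seed GAGGUAG, which is bases 2 to 8. The 4 whose hairpins had enough counts to be tested are shown, with the seed in capitals.
mmu-let-7a-5p: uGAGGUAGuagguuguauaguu
mmu-let-7c-5p: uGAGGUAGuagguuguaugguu
mmu-let-7d-5p: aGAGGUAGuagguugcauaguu
mmu-let-7f-5p: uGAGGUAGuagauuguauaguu

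A match to this seed reads CTACCTC in a 3′ UTR, and 9.0% of 21037 annotated mouse 3′ UTRs (1 for each gene, GENCODE M21 on GRCm38) hold at least 1. The search was made on the transcribed strand only and was added after the counts had been seen. *Lin28a* has 2 matches and *Lin28b* has 4, and the other 8 members have 0. Of 3′ UTRs of about the same length, 14.4% (*Lin28a*) and 24.2% (*Lin28b*) hold at least 1. The matches of both genes, and for comparison the 4 in *Hmga2*, the let-7 target with the smallest p below, are shown as transcribed, with the match in capitals.
Lin28a chr4:134005189-134005211 (minus strand): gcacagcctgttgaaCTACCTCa
Lin28a chr4:134004551-134004573 (minus strand): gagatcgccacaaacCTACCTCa
Lin28b chr10:45381022-45381044 (minus strand): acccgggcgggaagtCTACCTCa
Lin28b chr10:45378648-45378670 (minus strand): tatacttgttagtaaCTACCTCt
Lin28b chr10:45378476-45378498 (minus strand): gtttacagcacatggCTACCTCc
Lin28b chr10:45377060-45377082 (minus strand): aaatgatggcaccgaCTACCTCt
Hmga2 chr10:120364224-120364246 (minus strand): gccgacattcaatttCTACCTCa
Hmga2 chr10:120362987-120363009 (minus strand): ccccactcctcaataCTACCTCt
Hmga2 chr10:120362549-120362571 (minus strand): ctgatttgcaaggaaCTACCTCc
Hmga2 chr10:120361691-120361713 (minus strand): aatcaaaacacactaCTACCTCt

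Promoters were looked at because *Nkx1-2* and *Sp5* moved in opposite directions and *Lin28a* and *Lin28b* in the same one. RefSeq promoters of 300 bases (250 before and 50 after the start, GRCm38.p6) were found for 9 of the members. They were searched on both strands for GGGGAGGGG, a run of the G-rich kind that PATZ1 binds, and for CTTTGAA or CTTTGAT, the site of the TCF and LEF factors of Wnt signalling. The first is in 6.37% and the second in 8.65% of 32851 such promoters, and in the members' promoters no match of one overlaps a match of the other. *Lin28a* has 2 G-rich matches, which share bases with each other, and 1 TCF/LEF match, *Sp5* has 1 TCF/LEF match, and *Nkx1-2* and *Lin28b* have neither. *Gdf11* has 2 G-rich matches, *Cdx2* and *Tbx6* have 1 each, *T* has 1 of both kinds and *Cdx4* has none. GC content was 67.3% for *Nkx1-2*, 45.0% for *Sp5*, 63.3% for *Lin28a* and 39.0% for *Lin28b*, against a median of 52.7% over all promoters. Matches are in capitals, and the RefSeq start of *Lin28b* lies inside the longer gene that GENCODE annotates.
Nkx1-2 chr7:132599588-132599887 (minus strand): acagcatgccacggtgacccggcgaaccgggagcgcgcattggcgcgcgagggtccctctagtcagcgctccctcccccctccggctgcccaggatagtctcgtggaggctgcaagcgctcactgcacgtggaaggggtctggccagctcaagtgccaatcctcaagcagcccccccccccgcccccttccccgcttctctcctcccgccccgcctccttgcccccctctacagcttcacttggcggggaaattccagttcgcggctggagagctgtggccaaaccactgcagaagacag
Sp5 chr2:70474673-70474972 (plus strand): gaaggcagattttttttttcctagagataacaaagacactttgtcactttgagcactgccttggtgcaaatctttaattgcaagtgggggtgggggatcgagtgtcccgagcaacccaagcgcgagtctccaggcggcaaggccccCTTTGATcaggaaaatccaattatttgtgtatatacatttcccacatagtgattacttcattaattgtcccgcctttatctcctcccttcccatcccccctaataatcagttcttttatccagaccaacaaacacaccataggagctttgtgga
Lin28a chr4:134018767-134019066 (minus strand): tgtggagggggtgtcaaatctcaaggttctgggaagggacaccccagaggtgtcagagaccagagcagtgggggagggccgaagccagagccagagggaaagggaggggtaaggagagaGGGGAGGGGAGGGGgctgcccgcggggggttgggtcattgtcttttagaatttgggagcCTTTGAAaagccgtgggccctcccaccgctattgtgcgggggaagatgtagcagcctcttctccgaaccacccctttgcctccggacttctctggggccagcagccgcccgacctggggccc
Lin28b chr10:45470152-45470451 (minus strand): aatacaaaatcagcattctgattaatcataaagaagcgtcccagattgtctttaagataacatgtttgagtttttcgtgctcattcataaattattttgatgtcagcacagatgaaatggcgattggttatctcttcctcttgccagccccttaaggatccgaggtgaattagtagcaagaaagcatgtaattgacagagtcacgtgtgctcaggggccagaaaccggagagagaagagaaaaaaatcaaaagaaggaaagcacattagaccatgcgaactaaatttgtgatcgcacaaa

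Of the 10 members, 6 passed the filter on low counts. *Nkx1-2* was called higher in *Patz1* KO MNs, *Sp5*, *Gdf11*, *Lin28a* and *Lin28b* were called lower, and *Tbx6* was not called. The groups did not overlap in 5 of the 6, against 74.2% of all genes tested. The calls, 1 of 6 higher and 4 of 6 lower, stand against 24.1% and 23.8% of all genes tested. *Nkx1-2* and *Sp5* passed the filter through the group in which they are high, so the calls of these 2 are not a draw from genes with counts in both groups. The other 4, *Cdx1*, *Cdx2*, *Cdx4* and *T*, were below the filter.

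**Figure D1:**
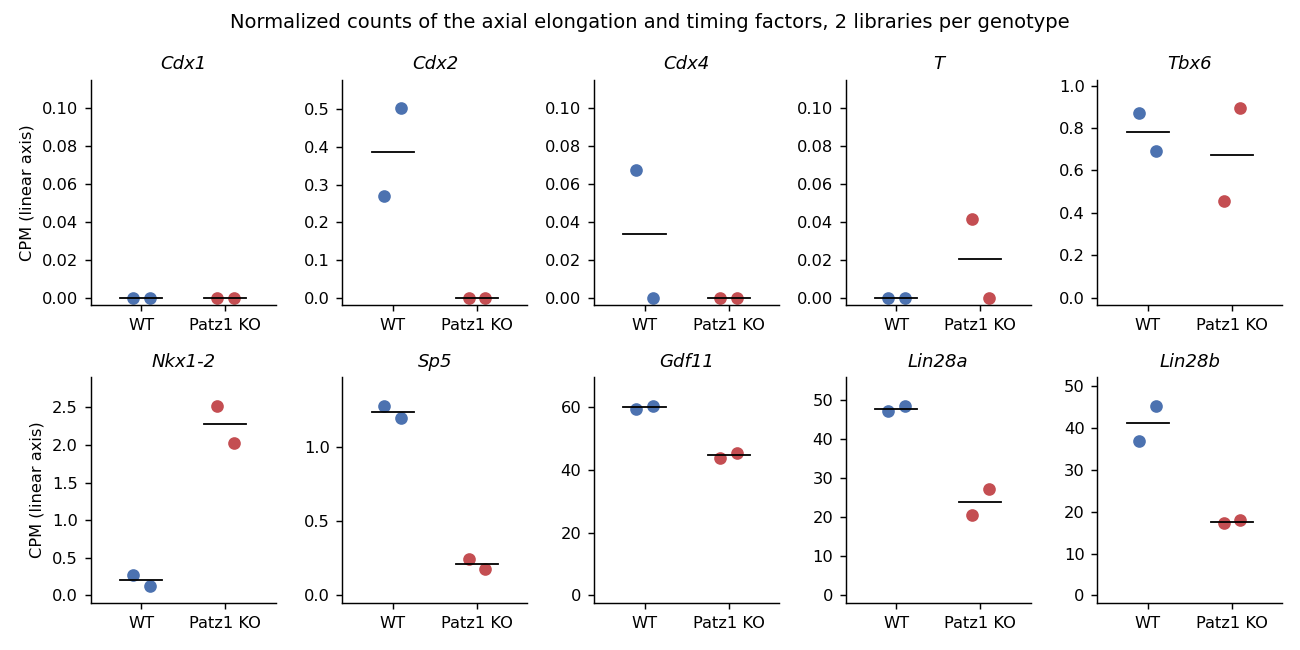
Each panel plots CPM (linear axis, its own scale) of 1 member in the WT and *Patz1* KO libraries, with a point for each library and a bar at the mean of the 2. *Nkx1-2* rises from 0.197 to 2.27 CPM, *Sp5*, *Gdf11*, *Lin28a* and *Lin28b* lie lower in both *Patz1* KO libraries, *Tbx6* overlaps, and *Cdx1*, *Cdx4* and *T* hold at most 1 count in any library.

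The 3 *Cdx* genes, homeobox factors that read Wnt, fibroblast growth factor and retinoic acid signals and bind *Hox* clusters, were at or near 0. *Cdx1* had 0 counts in all 4 libraries. *Cdx4* (chrX:103321398-103330592, GENCODE M21 on GRCm38, as for the positions that follow) had 1 and 0 WT counts against 0 and 0 in *Patz1* KO. The detection limit used here, 3 counts in a library, is 0.189 to 0.201 CPM in WT and 0.124 to 0.179 CPM in *Patz1* KO, so for these 2 genes no difference could be detected at such depth. This limit covers counting error only.

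*Cdx2* (chr5:147300805-147307270), which is also a factor of trophectoderm and of gut endoderm, was the only *Cdx* gene above that limit, and only in WT. It had 4 and 8 WT counts against 0 and 0 in *Patz1* KO, or 0.386 ± 0.166 CPM (SD, n = 2) in WT. The groups did not overlap, and, taking each *Patz1* KO library at the limit of 3 counts, *Cdx2* was at least 2.55-fold lower. With no filter on low counts, edgeR's QL test with the same adjustment called it (adjusted p = 0.00744), as it did 17.8% of 18706 genes in that direction, and DESeq2's Wald test gave an adjusted p of 0.0326. The summed levels of markers of cell types in which *Cdx2* is used moved the same way, though not every marker did. For trophectoderm, 3 of the 4 markers tested were lower and the summed level was 40.8 to 43.6 CPM in WT and 6.02 to 7.04 CPM in *Patz1* KO. For gut endoderm, 6 of 6 were lower and the sums were 67.3 to 69.2 and 8.83 to 11.4 CPM. Of all genes past the filter, 23.8% were lower. The gut endoderm sum is mostly that of *Foxa2* (28.2 to 5.56 CPM, WT to *Patz1* KO means), *Cldn6* (15.5 to 0.979 CPM) and *Foxa1* (12.5 to 1.74 CPM). *Foxa2* is on the list of notochord markers as well, so its fall is not particular to gut endoderm. The trophectoderm sum is mostly that of *Krt8* (21.1 to 1.97 CPM, WT to *Patz1* KO means) and *Krt18* (17.1 to 1.58 CPM), keratins of many epithelia, and the other marker called lower was *Tfap2c*. *Tfap2c*, and *Sox17*, *Epcam* and *Hnf4a* of gut endoderm, had fewer than 10 counts in a *Patz1* KO library and passed the filter through WT, where they are high. *Gata3*, also a trophectoderm marker, was tested and not called (log2 fold change -0.29). Below the filter, *Ascl2* was higher in *Patz1* KO, with 0 and 3 WT counts against 8 and 8. *Elf5* had 1 and 8 WT counts against 0 and 4. *Eomes* had 3 and 4 against 6 and 2, and *Hand1* had at most 3 in any library. The part of these cell types in the *Cdx2* counts was not tested, and in bulk RNA fewer cells of a type and less RNA per cell cannot be told apart.

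The 2 T-box members mark the streak and its mesoderm. *T* (chr17:8434423-8442496), the founding T-box factor of notochord and nascent mesoderm, had 0 and 0 WT counts against 1 and 0 in *Patz1* KO. Its depth allows no difference to be detected. *Tbx6* (chr7:126781483-126785560), which directs progenitors to paraxial mesoderm, had 13 and 11 WT counts against 11 and 15 in *Patz1* KO. The groups overlapped, at 0.782 ± 0.128 (SD, n = 2) CPM in WT against 0.674 ± 0.312 (SD, n = 2) CPM in *Patz1* KO. The fit gave a log2 fold change of -0.28 (SE 0.49, adjusted p = 0.668, edgeR's QL test, Benjamini-Hochberg adjusted), and the ratio of summed counts, scaled to library size, was 0.813 with an exact 95% interval from 0.449 to 1.48, so changes within that range could not be told from none. The direction turned to 0.20 without *Patz1* KO replicate 1.

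*Nkx1-2* (chr7:132594878-132599637), a homeobox gene of the caudal epiblast and the stem zone that feeds the spinal cord, was the 1 member that rose. It had 4 and 2 WT counts against 61 and 34 in *Patz1* KO. Both *Patz1* KO libraries lay far above both WT libraries. Its level went from 0.197 ± 0.101 to 2.27 ± 0.346 CPM (SD, n = 2 per group), 11.4-fold, with a log2 fold change of 3.51 (SE 0.50, adjusted p = 1.89e-05, edgeR's QL test, Benjamini-Hochberg adjusted). The ratio of summed counts was 11.9, with an exact 95% interval from 5.26 to 33.2. The fold rests on 6 WT counts in all, and leaving out single libraries moved its log2 fold change between 3.07 and 4.12. Its exons overlap those of *Gm16764* on the other strand, and since the strand setting of the counting is not given in the sources used here, reads of both may be counted as *Nkx1-2*.

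*Sp5* (chr2:70474923-70477729), a zinc finger factor that Wnt signalling switches on directly, moved the other way. It had 19 and 19 WT counts against 6 and 3 in *Patz1* KO. The groups did not overlap. Its level fell from 1.24 ± 0.057 to 0.213 ± 0.0485 CPM (SD, n = 2 per group), 5.5-fold, with a log2 fold change of -2.46 (SE 0.52, adjusted p = 0.000792, edgeR's QL test, Benjamini-Hochberg adjusted). The exact 95% interval of the ratio of summed counts, WT over *Patz1* KO, was 2.67 to 13.2.

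Around these factors, 15 other genes of the caudal epiblast and of neuromesodermal progenitors were counted, and 9 passed the filter. Of these, 2 were called higher, 6 lower and 1, *Epha5*, neither, with a median log2 fold change of -0.49 against -0.0014 over all genes tested. The shares over all genes tested were 24.1% higher, which is near that of this list, and 23.8% lower. The 4 with the smallest p were *Cyp26a1*, which breaks down retinoic acid, *Fst*, *Rxrg* and *Sall4*. *Cyp26a1* fell from 117 ± 5.57 to 41.7 ± 9.58 CPM (SD, n = 2 per group), with a log2 fold change of -1.48, and was the most counted of them. *Fst*, which encodes follistatin, an inhibitor of activins and of GDF11, went from 65 and 69 counts to 9 and 10 (log2 fold change -3.20), and *Sall4*, a zinc finger factor of stem cells, fell by 1.64 on the log2 scale. *Fst* passed the filter through WT, where it is high. The 2 higher genes were *Rxrg*, a retinoid receptor of MNs, from 186 and 200 to 748 and 399 counts (log2 fold change 1.13), and *Evx1*, a homeobox gene of the tail end that also marks a class of spinal interneurons. *Evx1* had 0 and 4 WT counts against 29 and 11 in *Patz1* KO (log2 fold change 2.82, SE 0.75), passed the filter through the group in which it is high, and was not called without WT replicate 1 (adjusted p = 0.0675). The Wnt and fibroblast growth factor ligands of the tail end were near 0: *Wnt8a* and *Fgf4* had no counts, *Wnt3a* had 2 in every library, *Fgf8* had 1 in all and *Fgf17* had at most 4.

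Presomitic and paraxial mesoderm genes, the neighbours of *Tbx6*, were split. Of 17 counted, 8 passed the filter, and 2 were higher, 2 lower and 4 neither, which is near the shares of all genes (24.1% and 23.8%), with a median log2 fold change of -0.092. The 2 lower genes were the forkhead factors *Foxc1*, from 86 and 122 WT counts to 15 and 12 *Patz1* KO counts (log2 fold change -3.34), and *Foxc2*, from 53 and 64 to 4 and 1 (log2 fold change -4.89). *Foxc2* passed the filter through WT, where it is high, so its call is not a draw from genes with counts in both groups. The 2 higher genes, *Lfng* (log2 fold change 0.73), which tunes Notch signalling, and the protocadherin *Pcdh8* (0.48), are also used in neural tissue, and *Pcdh8* did not pass with DESeq2's Wald test (adjusted p = 0.104) or without WT replicate 1, WT replicate 2 or *Patz1* KO replicate 1 (adjusted p from 0.0635 to 0.236). *Msgn1*, *Mesp1* and *Ripply1*, which define this mesoderm, had no counts in any library. On the marker list for primitive streak and mesoderm, 3 of 3 genes tested (*Foxf1*, *Twist1* and *Kdr*) were lower, and *Mesp1* and *Msgn1* were at 0. *Twist1* passed the filter through WT, where it is high. The summed level was 34.0 to 43.0 CPM in WT and 6.08 to 6.77 CPM in *Patz1* KO. The part of primitive streak and mesoderm cells in the fall of *Foxc1*, *Foxc2* and *Sp5* was not tested.

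Among 17 genes that canonical Wnt signalling induces or that carry it, the group of *Sp5*, 15 passed the filter, of which 2 were higher, 7 lower and 6 neither (median log2 fold change -0.44). The shares over all genes tested were 24.1% higher and 23.8% lower. The 4 with the smallest p all fell: *Ccnd1*, which encodes cyclin D1, from 41.9 ± 1.11 to 18.3 ± 3.86 CPM (SD, n = 2 per group, log2 fold change -1.21), *Tcf7l2* (log2 fold change -0.78), a TCF factor, *Sp8* (-0.49), a relative of *Sp5*, and *Znrf3* (-0.72), a feedback inhibitor. *Axin2*, the most general Wnt target, had 272 and 267 WT counts against 309 and 219 in *Patz1* KO (log2 fold change -0.44). The 2 higher genes were *Nkd2* (log2 fold change 0.84) and *Tcf7l1* (0.56), and DESeq2's Wald test called neither (adjusted p = 0.0893 and 0.172). *Nkd2* was also lost without WT replicate 2, and *Tcf7l1* with library size alone, without WT replicate 1 and without *Patz1* KO replicate 2. Of the 2 genes below the filter, *Notum*, which encodes an enzyme that inactivates Wnt ligands, went from 17 and 8 WT counts to 3 and 1, and *Wif1* had at most 4 in any library.

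**Figure D2:**
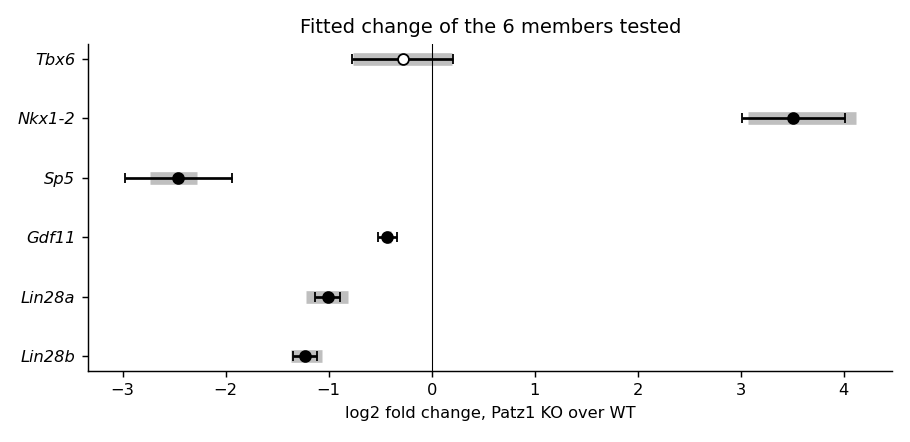
Points are log2 fold changes (*Patz1* KO over WT, horizontal axis) of the 6 members tested, with bars for the SE, filled where the adjusted p was below 0.05, and grey bands for the range over the 4 fits that lack 1 library each. *Nkx1-2* lies at 3.51, the 4 called lower lie between -2.46 and -0.43, and only the band of *Tbx6* crosses 0.

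*Gdf11* (chr10:128882295-128891718), the ligand of the transforming growth factor family that sets where the trunk ends, was the member with the most counts. It had 887 and 962 WT counts against 1064 and 764 in *Patz1* KO, where the first library is the deepest of the 4. Scaled to library size the groups did not overlap, at 60.0 ± 0.674 (SD, n = 2) CPM in WT against 44.7 ± 1.17 (SD, n = 2) CPM in *Patz1* KO, or 74.5% of WT. The log2 fold change was -0.43 (SE 0.094, adjusted p = 0.00116, edgeR's QL test, Benjamini-Hochberg adjusted) and kept within -0.45 and -0.40 when each library was left out. Over all genes tested, the median absolute log2 fold change was 0.339.

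Of 19 genes that process, receive, inhibit or pass on the GDF11 signal, 16 passed the filter, with 3 higher, 4 lower and 9 neither (median log2 fold change -0.198), which is near the shares of all genes (24.1% and 23.8%). Among the effectors, *Smad3* fell from 96.0 ± 0.893 to 42.9 ± 3.98 CPM (SD, n = 2 per group, log2 fold change -1.16) and *Smad4* fell by 0.30 on the log2 scale, a call that was lost with DESeq2's Wald test (adjusted p = 0.058) and without WT replicate 2 (adjusted p = 0.286), while *Smad2* had a log2 fold change of -0.02 that was not called. The inhibitor *Fst* fell (-3.20, as above), and so did *Bmp1*, a protease that frees the ligand from its propeptide (-0.54). The 3 higher genes were the receptor *Acvr1b* (log2 fold change 0.51), the inhibitory *Smad7* (0.55) and *Tll2*, a relative of *Bmp1* (0.92), which was not called without WT replicate 2 (adjusted p = 0.0669). The receptors *Acvr2a* (0.04), *Acvr2b* (-0.26) and *Tgfbr1* (-0.02) were not called, and *Mstn*, the gene of the closely related ligand myostatin, had at most 6 counts in any library.

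Among the members, the largest drops in CPM were those of the 2 *Lin28* genes. *Lin28a* (chr4:134003330-134018841) had 700 and 770 WT counts against 495 and 457 in *Patz1* KO. Both *Patz1* KO libraries were below both WT libraries. Its level fell from 47.7 ± 1.01 to 23.8 ± 4.83 CPM (SD, n = 2 per group), to 49.6% of WT, with a log2 fold change of -1.01 (SE 0.12, adjusted p = 2.62e-06, edgeR's QL test, Benjamini-Hochberg adjusted). Exons of *Lin28a* overlap *Gm13061* on the other strand, with the same limit as for *Nkx1-2*.

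*Lin28b* (chr10:45376620-45486395) had 550 and 720 WT counts against 416 and 302 in *Patz1* KO. It too separated the groups, at 41.1 ± 5.91 (SD, n = 2) CPM in WT against 17.6 ± 0.597 (SD, n = 2) CPM in *Patz1* KO, or 42.7% of WT. The log2 fold change was -1.23 (SE 0.12, adjusted p = 2.32e-07, edgeR's QL test, Benjamini-Hochberg adjusted). Without each library in turn the log2 fold change went from -1.22 to -0.81 for *Lin28a* and from -1.37 to -1.06 for *Lin28b*. The paralogs kept about the same ratio: per kilobase of exon, *Lin28a* was 2.89 and 2.43 times *Lin28b* in WT and 2.70 and 3.43 times in *Patz1* KO, and the groups overlapped.

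Genes of neural progenitors, which also express *Lin28a* and *Lin28b*, moved both ways: of 8 markers, *Sox1*, *Sox3* and *Nkx6-1* were higher and *Pax6* (log2 fold change -1.05), *Nes* (-0.72) and *Hes5* (-0.99) were lower, and the summed level was 863 to 890 CPM in WT and 644 to 660 CPM in *Patz1* KO. Most of the fall of this sum was that of *Nes* (492 to 298 CPM, WT to *Patz1* KO means). For all genes tested, the shares were 24.1% higher and 23.8% lower. Pluripotent cells also express *Lin28a*. Of 10 pluripotent markers 4 passed the filter and 2 of these, *Klf4* and *Dppa5a*, were lower, *Dppa5a* having passed through WT, where it is high. *Nanog* (log2 fold change -0.70) and *Zfp42* (0.46) were not called. Below the filter, *Esrrb* was higher in *Patz1* KO, with 8 and 6 WT counts against 14 and 17. The summed level was 9.80 to 12.7 CPM in WT and 6.31 to 8.41 CPM in *Patz1* KO, *Utf1* had no counts and *Pou5f1* had at most 7 counts in a library. The part of these cells in the *Lin28* levels was not tested.

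Known let-7 targets, genes that LIN28 shields from let-7, fell more often than they rose. All 17 on the list passed the filter, and 1 was higher, 10 lower and 6 neither, with a median log2 fold change of -0.38. Over all genes tested, 24.1% were higher and 23.8% lower. The chromatin factor *Hmga2* fell from 100 ± 2.99 to 32.1 ± 2.35 CPM (SD, n = 2 per group), a log2 fold change of -1.65 (SE 0.097, adjusted p = 4.04e-10, edgeR's QL test, Benjamini-Hochberg adjusted). *Trim71*, the mouse *lin-41*, fell by 1.47, the mRNA-binding factor *Igf2bp1* by 1.04 and *Ccnd2*, which encodes cyclin D2, by 0.98 on the log2 scale. *Cdc34* (log2 fold change 0.24) was the 1 higher gene, and it was not called with library size alone, with DESeq2's Wald test or without either WT replicate. *Igf2bp3*, a close relative of *Igf2bp1*, had 3794 and 4248 WT counts against 6172 and 4483 in *Patz1* KO, with a log2 fold change of 0.00 to 2 decimals.

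Read against the seed matches shown above, the 5 targets with 2 or more matches (*Hmga2*, *Igf2bp1*, *Trim71*, *Arid3a* and *Nr6a1*) were all called lower, with a median log2 fold change of -1.04. Of the 10 with 1 match, 4 (*Igf2bp2*, *Nras*, *Cdc25a* and *Plagl2*) were lower and 1, *Cdc34*, was higher (median -0.115). Of the 2 with none, *Ccnd2* was lower and *Mycn* was not called. The order within the first group did not follow the number of matches, since *Nr6a1* has 8 and a log2 fold change of -0.46. Over all genes tested, 29.5% of the 183 with 2 or more matches were lower (median log2 fold change -0.095), against 23.5% of the 11991 with none (median 0.0072). Genes with more matches also have longer 3′ UTRs, with a median of 3652 bases for 2 or more matches and 1129 for none. Among 3′ UTRs of at least 2000 bases, the shares were closer, 28.7% of 157 genes against 25.9% of 3376. With the members and the list left out, and any length, 26.7% of 176 genes with 2 or more matches were lower, and of 22 genes with 3 or more 27.3% were lower and 27.3% higher. These splits are descriptions and were not tested.

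**Figure D3:**
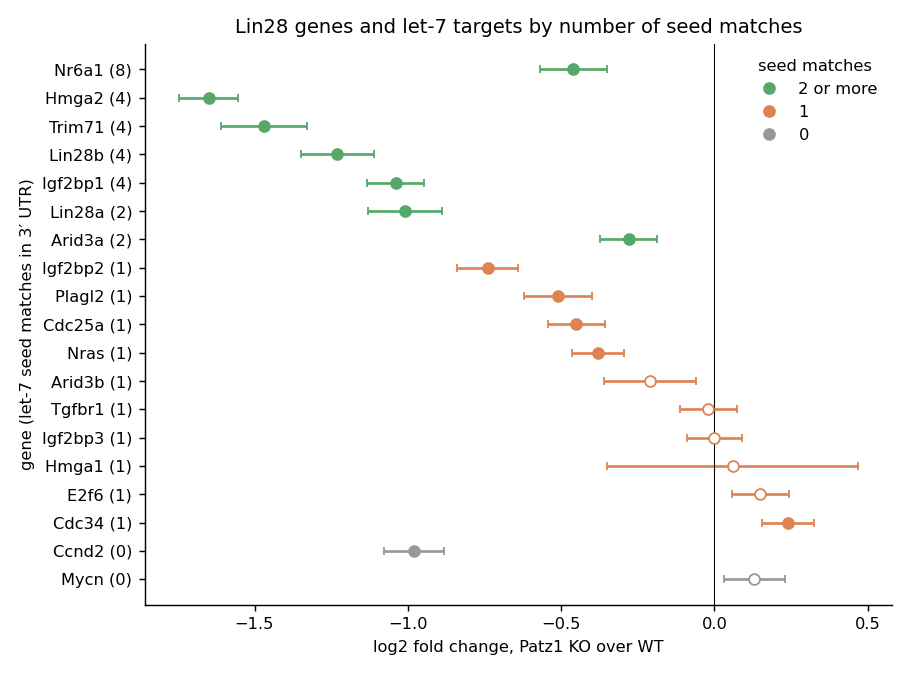
Points are log2 fold changes (*Patz1* KO over WT, horizontal axis) with SE bars for *Lin28a*, *Lin28b* and the 17 let-7 targets, ordered and coloured by the number of seed matches in the 3′ UTR (in brackets) and filled where the adjusted p was below 0.05. All 7 genes with 2 or more matches lie below 0, from -1.65 for *Hmga2* to -0.28 for *Arid3a*, while genes with 1 match lie on both sides.

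let-7 itself was not measured as a mature microRNA, because libraries of this kind do not hold such short RNAs, and reads on a hairpin come from its precursor or host transcript. Of 12 let-7 family hairpins, 4 passed the filter, none was higher, 1 was lower and 3 were neither, against 24.1% higher and 23.8% lower over all genes tested. The lower one, *Mirlet7f-1*, passed the filter through WT, where it is high. *Mirlet7f-1* had 11 and 21 WT counts against 8 and 4 in *Patz1* KO (log2 fold change -1.81, SE 0.53), and neither DESeq2's Wald test (adjusted p = 0.108) nor the fit without WT replicate 2 (adjusted p = 0.234) called it. *Mirlet7a-1* (0.06), *Mirlet7c-1* (0.38) and *Mirlet7d* (-0.82) were not called. *Mirlet7a-1*, *Mirlet7f-1* and *Mirlet7d* lie within exons of 1 host transcript, *6720427I07Rik*, on the same strand, so their counts are not independent.

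In the machinery that makes let-7 or acts with LIN28 on it, 13 genes were tested, and 1 was higher, 8 lower and 4 neither, with log2 fold changes from -0.45 to 0.39 around a median of -0.24. Of all genes tested, 24.1% were higher and 23.8% lower. *Dicer1*, which cuts the hairpin, fell from 210 ± 8.95 to 154 ± 19.4 CPM (SD, n = 2 per group). *Eif2c2* (the symbol of *Ago2* here) fell by 0.38 and *Zcchc11* (*Tut4*), the uridylase that LIN28 brings to the precursor, by 0.37 on the log2 scale. *Dis3l2*, the nuclease that degrades uridylated precursors, rose (log2 fold change 0.39). The counts of this list moved with the setting: DESeq2's Wald test called 5 lower, and fewer were lower without either WT replicate. *Zcchc11* was not called without WT replicate 2 (adjusted p = 0.153), nor *Dis3l2* without WT replicate 1 (adjusted p = 0.0503).

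Genes of trunk length and of the change from trunk to tail, here the trunk length list, were mostly lower. Of 8 counted, 7 passed the filter, with 5 lower, 0 higher and 2 neither, and a median log2 fold change of -1.64. Over all genes tested, 23.8% were lower and 24.1% higher. The genes of this list act in different steps and were not chosen as 1 programme. This list shares *Hmga2* and *Nr6a1* with the let-7 targets and *Sall4* with the caudal list. *Nr6a1*, an orphan nuclear receptor that sets the number of trunk vertebrae, had 518 and 552 WT counts against 605 and 432 in *Patz1* KO, which is 34.7 ± 0.042 and 25.4 ± 0.565 CPM (SD, n = 2 per group), and its log2 fold change was -0.46. *Hand2* had 57 and 50 WT counts against 11 and 21 in *Patz1* KO (log2 fold change -2.12), and *Snai1*, a factor of cells that leave an epithelium, fell from 13 and 29 to 7 and 4 (-2.31). *Hand2* and *Snai1* passed the filter through WT, where they are high. *Snai1* was not called without WT replicate 2 (adjusted p = 0.103). *Isl1*, an MN marker as well, was not called (-0.19), and neither was *Tbx4* (0.42). As with *Nkx1-2*, values are uncertain for genes whose exons overlap a gene on the other strand, which among the list genes given with values here include *Evx1*, *Notum*, *Sall4*, *Fst*, *Pcdh8*, *Axin2*, *Ccnd1*, *Tcf7l1*, *Acvr2a*, *Hmga2*, *Igf2bp1*, *Igf2bp3*, *Trim71*, *Ccnd2*, *Eif2c2* and *Hand2*, and among the markers *Lhx3*, *Hes5*, *Krt8*, *Pou5f1*, *Shh*, *Foxf1*, *Dab2*, *Cubn*, *Gata6*, *Chrd* and *Dnd1*.

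**Figure D4:**
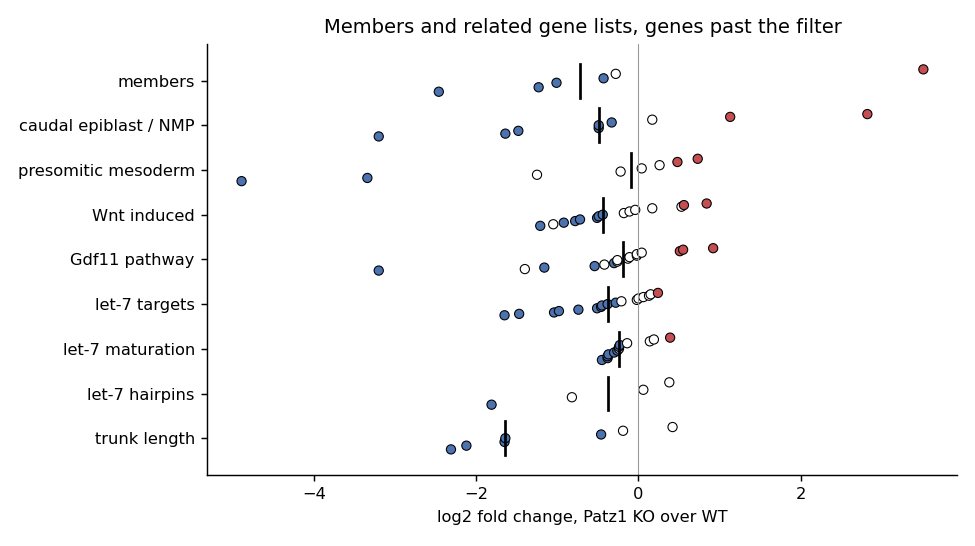
Each point is the log2 fold change (*Patz1* KO over WT, horizontal axis) of 1 gene past the filter, by list, blue where called lower, red where called higher and white where neither, with a black bar at the median of the list. Medians run from -1.64 for the trunk length list to -0.092 for presomitic mesoderm, and every list but the let-7 hairpins and trunk length holds genes called in both directions.

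Per kilobase of exon, a scale on which genes can be compared, the order in WT was *Gdf11* (14.8 ± 0.166 CPM per kilobase, SD, n = 2), *Lin28a* (11.9 ± 0.254), *Lin28b* (4.53 ± 0.652), *Sp5* (0.588 ± 0.0271), *Tbx6* (0.434 ± 0.0709), *Cdx2* (0.171 ± 0.0734) and *Nkx1-2* (0.0604 ± 0.0309), with *Cdx1*, *Cdx4* and *T* under the detection limit. The SDs of *Cdx2* and *Nkx1-2* nearly meet, and the other neighbours were further apart than their SDs. *Nkx1-2* had 2 counts in WT replicate 2, under the limit of 3 counts, so its place in the WT order is uncertain. In *Patz1* KO the first 3 places were the same, at 11.0 ± 0.289, 5.96 ± 1.21 and 1.94 ± 0.0659 CPM per kilobase. *Nkx1-2* (0.696 ± 0.106) came next, ahead of *Tbx6* (0.374 ± 0.173) and *Sp5* (0.102 ± 0.0231), and the other 4 members were at or under the detection limit. *Gdf11*, *Lin28a* and *Lin28b* thus stood well above the other members in both genotypes.

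The gene with the pattern nearest to each well counted member, by the Euclidean distance of centred log2(CPM + 0.1) over the 4 libraries among 10893 genes with a mean of at least 100 counts, was *Trim33* for *Gdf11* (distance 0.019), *Hspe1* for *Lin28a* (0.0902) and *Kcnq1ot1* for *Lin28b* (0.0639). With 4 libraries in 2 groups, such a distance mostly reads the difference between the genotypes.

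Other marker lists with lower sums in *Patz1* KO were those of extraembryonic endoderm and of notochord. Of all genes tested, 24.1% were higher and 23.8% lower. For extraembryonic endoderm, 5 of 7 genes tested were lower (*Gata4*, *Gata6*, *Dab2*, *Ttr* and *Cubn*). *Sox7* (log2 fold change -0.11) and *Afp* (-0.04) were not called. The summed levels were 41.2 to 48.9 CPM in WT and 7.33 to 7.34 CPM in *Patz1* KO. For notochord, 2 of 5 were lower and 2 (*Chrd* and *Nog*) higher, with sums of 87.6 to 88.5 and 34.4 to 36.7 CPM. *Shh* and *Foxa2* gave the fall of the notochord list, and *Noto*, which defines that tissue, had 1 count in all. Of germ cell markers, 3 of 5 (*Dnd1*, *Dazl* and *Tfap2c*) were lower, and *Tfap2c* is on the trophectoderm list as well. *Ddx4* (log2 fold change 0.29) and *Nanos3* (-0.28) were not called. Below the filter, *Prdm14* was higher, with 0 and 0 WT counts against 4 and 5 in *Patz1* KO. The germ cell sums were at most 12.3 CPM in WT and 7.59 to 8.76 CPM in *Patz1* KO. *Gata4*, *Gata6*, *Ttr*, *Dazl* and *Tfap2c* had fewer than 10 counts in a *Patz1* KO library and passed the filter through WT, where they are high. The values of these marker lists are descriptions. The part of these cell types in the values of *Sp5*, *Lin28a* and *Lin28b* was not tested.

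**Figure D5:**
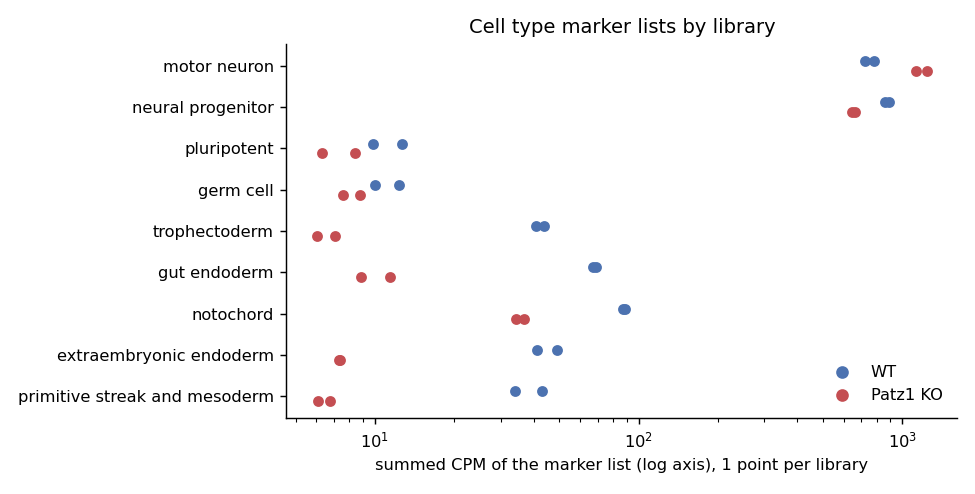
Each point is the summed CPM (log axis) of a list of cell type markers in 1 library, WT above and *Patz1* KO below on each line. MN markers are higher in *Patz1* KO (1130 to 1240 against 721 to 779 CPM), and the sums of gut endoderm, extraembryonic endoderm, trophectoderm and primitive streak markers are all below 12 CPM in *Patz1* KO and at least 34.0 CPM in WT.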

How the data were processed

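RNA-seq of cervical MNs from WT and *Patz1* -/- E14 cells was analysed, 2 libraries each. The deposited values are raw counts of reads per gene symbol, made by the authors, with no normalization. The study's methods name mapping to mm10 with Bowtie 2 and testing with DESeq2, and the submitters' processing notes list TopHat2 2.1.1, Bowtie2 2.3.1, featureCounts 1.6.2, DESeq2 and mm10 without a role or order. The annotation and the strand setting of the counting are not given in the sources used here, so counts of genes that overlap others are uncertain. No column of the files was left unused, and every line names a gene.

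Counts were scaled with TMM and tested with the quasi-likelihood test of edgeR 4.0.16 (limma 3.58.1, R 4.3.3) after filterByExpr with a minimum count of 10, which left 14269 of 23420 symbols. Calls are at a Benjamini-Hochberg adjusted p below 0.05 over all genes tested, 2-sided. The SE was obtained by dividing the absolute log2 fold change by the root of F. Chi-square per gene between replicates was 10.5 in WT and 23.4 in *Patz1* KO, more than sampling noise gives, and the common biological coefficient of variation was 7.71%. Total counts of 14769104 to 23881522 put the limit of 3 counts at 0.124 to 0.201 CPM, and such limits and exact intervals cover counting error only, since reads carry no molecular identifiers.

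The members, gene lists, marker lists and tests were chosen with earlier results of these data known, and support nothing by themselves. 1 gene of the let-7 target list is not reported here. The genes named are all members, *Patz1*, those with the 4 smallest p values in each list, every gene behind a count of 5 or fewer calls in a pathway list, and the nearest gene to each well counted member. *Epha5*, *Axin2*, *Igf2bp3*, *Nr6a1*, *Arid3a*, *Mycn*, the receptors and *Smad2*, the genes near 0 and the marker genes were named after their values were seen. Positions, exon lengths, 3′ UTRs and overlaps are from GENCODE M21 (GRCm38, the assembly of mm10), and microRNAs and promoters from RefSeq (GRCm38.p6). Alternatives were scaling by DESeq2's size factors or by library size, no filter, a minimum of 10 counts in every library, a block for the replicate number, the Wald test of DESeq2 1.42.0, thinning to the smallest library and leaving out each library. Tables and plots used Python 3.11.15, numpy 2.4.6, pandas 2.3.3, scipy 1.17.1 and matplotlib 3.10.9.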

Additional observations from a re-analysis of the deposited data

How the results depend on the processing

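*Nkx1-2*, *Sp5*, *Gdf11*, *Lin28a* and *Lin28b* kept their direction and their call under every alternative that included them, and without each library in turn, where the lone library of a group is assumed to vary like the others. Requiring at least 10 counts in every library removed *Nkx1-2* and *Sp5*, so that 0 members were called higher. The same filter left 1 caudal gene higher, 1 presomitic gene lower and 0 let-7 hairpins lower, because fewer genes were tested. DESeq2's Wald test called 1 presomitic, 0 Wnt and 0 let-7 target genes higher, and 5 maturation genes and 0 hairpins lower. Library size alone gave 1 Wnt and 0 let-7 target genes higher, and thinning gave 2 hairpins lower. Leaving out each library gave 2193 (without WT replicate 2) to 3816 genes lower and 2378 to 3996 higher. For the lists it gave 1 (without WT replicate 1) to 3 caudal, 1 to 2 presomitic, 1 (without WT replicate 2) to 2 Wnt, 0 (without either WT replicate) to 1 let-7 target and 0 (without WT replicate 1) to 3 (without *Patz1* KO replicate 2) maturation genes higher, and 3 to 10 maturation genes and 0 to 1 hairpins lower. *Tbx6*, never called, turned to 0.092 with thinning and ran from -0.77 to 0.20 (without *Patz1* KO replicate 1) when a library was left out. So did *Mirlet7a-1*, from -0.53 (without *Patz1* KO replicate 2; -0.38 without WT replicate 1) to 0.77, and *Mirlet7c-1*, from -0.17 (without *Patz1* KO replicate 2) to 0.87. Beyond what a filter or a smaller sample removes, the cause was not tested. With the replicate block, 3710 genes were higher and 3651 lower, and 1 and 4 members. Same-numbered libraries deviated together with r = 0.030 over 14269 genes, so the numbers were not taken to pair the samples. Genes with few counts are limited by depth: for *Cdx1*, *Cdx4* and *T* a difference could not be detected.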
